A study of Mus musculus with 20 samples.

Results

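Macrophage and monocyte genes were followed in the bone marrow of mice that carried T lineage acute lymphoblastic leukemia (T-ALL). The 33 genes were chosen by symbol as known genes of mononuclear phagocytes, and all 33 were found among the 39017 genes of the table. They were divided by role into 19 tissue macrophage genes, 5 monocyte genes and 9 genes shared by both kinds of cell. The leukemias had been induced by insertional mutagenesis with the MOL4070LTR retrovirus in C57Bl/6 x 129Sv/Jae F1 mice. Each leukemia had been transplanted into wild-type F1 recipients after sublethal irradiation, and such a host keeps marrow cells of its own. RNA therefore came from leukemic cells together with whatever recipient macrophages and monocytes were present. In bulk RNA, fewer cells of a type and less RNA per cell cannot be told apart.

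There were 20 libraries, 2 from each of 10 leukemias. The 9 named 73A, 73M, 2M, 20M, 5C, 78A, JW14, JW81 and 8633 appear by these names in the paper's overview of mutations and entered the tests with their 18 libraries. The name 4638 was not found there or in the paper's text, although the overview has a name with the same digits in another order, and whether it is the same leukemia is not stated. Leukemia 4638 was therefore set apart. The column name of 1 library of each pair carries the letters VEH and that of the other DEX, which neither the labels nor the paper explain. No source says that the libraries of a leukemia came from separate mice, so p-values measure the spread between these libraries, which may be technical. The 18 libraries held 8226528 to 201222288 counts (median 24451898). A floor of 3 counts on 1 kb of exon corresponded to 0.0149 to 0.365 FPKM (FPKM is the count scaled by the exon length of the gene and by the total of the library). The mean log2(FPKM + 1) of 6 T lineage genes was 5.39 to 6.76 in the 9 leukemias and 4.08 in 4638. For 13 neutrophil genes it was 1.16 to 6.46 in the 9 and 7.96 in 4638, so that neutrophil genes stood above T lineage genes in 4638 and in 73A (6.46 against 6.24).

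Macrophages and monocytes take up dead cells, microbes and debris. Monocytes leave the marrow through the chemokine receptor Ccr2 and carry Ly6C on their surface, whereas the resident macrophages of the marrow sit at the centre of erythroblastic islands, hold the red cell precursors with Vcam1, engulf their expelled nuclei and return the iron through the exporter ferroportin, encoded by Slc40a1. Most tissue macrophages depend on the receptor for colony-stimulating factor 1, encoded by Csf1r. Both kinds of cell depend on the transcription factor PU.1, encoded by Spi1. Macrophages are also a main source of the complement component C1q, which is assembled from the products of C1qa, C1qb and C1qc.

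Many of these genes were low in the 9 leukemias. Of the 33, 17 averaged at least 1 FPKM, beside 11339 of the 27912 genes with any count. Averaged over the 9, 16 of the 33 lay under 1 FPKM, 10 were under 1 FPKM in every one of the 9, and only 4 reached 10 FPKM in any of them: Apoe, Trf, Ly6c2 and Ctss. The means ran from 0.0767 FPKM for Ms4a7, a membrane protein of mature macrophages, to 21.3 FPKM for Trf, which encodes the iron carrier transferrin. There were 4 genes that had at least 1 library with no count. These were Fcgr1 in the VEH library of 2M, Cd14 and Timd4 in the DEX library of JW14, and Marco in 3 libraries. A level this low could not be separated from absence in the shallow libraries.

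As groups, the 3 lists had similar levels. The mean of log2(FPKM + 1) over the list, averaged over the 9 leukemias, was 1.33 ± 0.29 (SD, n = 9) for tissue macrophage genes, 1.20 ± 0.47 for monocyte genes and 1.29 ± 0.28 for the shared genes. In 4638 the same measures were 3.07, 3.43 and 3.11. None of the 9 leukemias came near these values, as the plot of list levels shows.

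**Figure D1:**
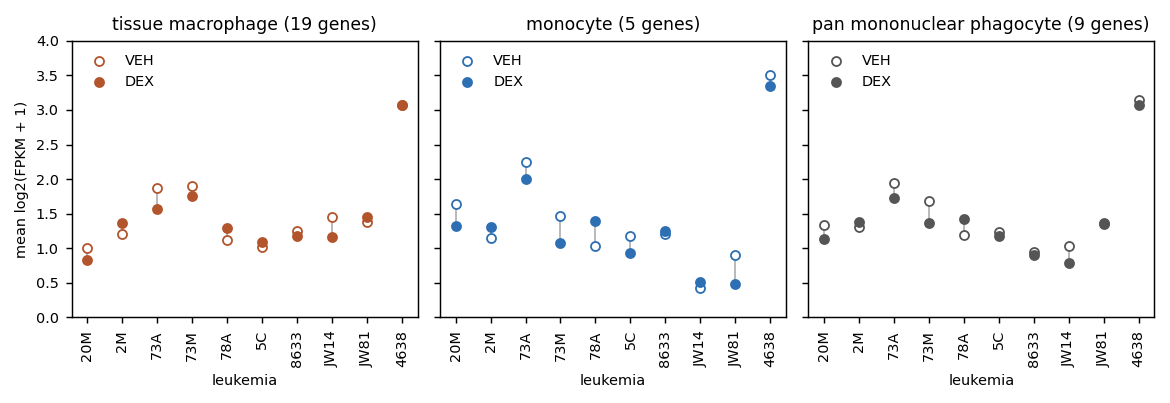
Mean log2(FPKM + 1) over the tissue macrophage (19 genes), monocyte (5) and shared mononuclear phagocyte genes (9) in each library, with leukemias on the horizontal axis, open points for VEH columns, filled points for DEX columns and a line joining the 2 libraries of a leukemia. Leukemia 4638 lies above the other 9 in all 3 panels, and JW14 and JW81 are the lowest for monocyte genes.

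Tissue macrophage genes were highest in 73M (list level 1.83) and 73A (1.72), followed by JW81 at 1.41, and lowest in 20M at 0.91. Except between 73A and JW81, neighbours in this order differed by less than 0.16, the mean absolute difference between the 2 libraries of a leukemia. Single genes weighed on this order and on the gaps given below. Apoe was at 67.2 FPKM in JW81 against a median of 9.10. Trf was at 62.0 FPKM in 8633 and 41.2 in JW14 against a median of 16.3. List levels without these genes were not calculated. Monocyte genes had another order. They were highest in 73A at 2.12, well above 20M at 1.48, and lowest in JW81 at 0.69 and JW14 at 0.47, whereas the 5 leukemias between 73M (1.27) and 5C (1.06) were closer together than the 2 libraries of a leukemia, which differed by 0.25 on average. The shared genes were highest in 73A at 1.83 and lowest in 8633 and JW14, both at 0.92. The gap between monocyte and tissue macrophage levels ran from 0.56 in favour of monocyte genes in 20M and 0.40 in 73A to -0.56 in 73M, -0.72 in JW81 and -0.83 in JW14.

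The leukemia with the highest level was 73A or 73M for 27 of the 33 genes. This pair was picked after the values were seen, as the 2 leukemias that were most often highest for these genes, so the count is a description. Over all genes that averaged 1 FPKM or more the highest was 73A or 73M for 20.4%, and over all genes with any count for 27.4%. The 27 were divided by role: 73M led for 12 of the 19 tissue macrophage genes, and 73A for 4 of the 5 monocyte genes and 5 of the 9 shared genes. At the low end, 8633 or JW14, a pair also picked after the values were seen, was lowest for 17 of 33 genes. Over all genes the share was 29.9% of those of at least 1 FPKM and 24.4% of those with any count. Taken singly, 8633 was lowest for 10 genes, and JW14 and 20M for 7 each.

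Other marrow cells varied between the same leukemias. The neutrophil list of 13 genes was also highest in 73A (level 6.46) and lowest in JW14 (1.16), and its summed level ran from 21.8 to 4737 FPKM over the 18 libraries. The erythroid list of 10 genes was highest in 73M (3.47) and next in 73A (2.41), with summed levels of 4.65 to 776 FPKM, and was lowest in 8633 (0.58). The dendritic cell list was low everywhere among the 9, at 3.60 to 19.4 FPKM summed over 10 genes, and was highest in 73M. The B lineage list of 7 genes was highest in 73M (1.12) and next in 73A (0.67), against a median of 0.17, and the mast cell and basophil list of 5 genes was highest in 73A (1.59) and next in 73M (1.26), against a median of 0.68. The megakaryocyte list and the endothelial and stromal list were highest in 73A too (1.45 and 1.27), and the T lineage list in 78A (6.76). No gene of the neutrophil, erythroid and dendritic lists was at 0 in all 20 libraries, and 1 neutrophil, 3 erythroid and 4 dendritic genes were at 0 in at least 1 library. The part of these cells in the levels of the macrophage and monocyte genes was not tested.

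Whether a gene varied more between the 9 leukemias than between the 2 libraries of a leukemia was tested with edgeR's quasi-likelihood test on the 17 of the 33 genes that averaged at least 1 FPKM. The test called 15 of these 17, beside 82.5% of all 11339 genes tested, so the share among the phagocyte genes was near that of the background. Cd68, which encodes a lysosomal membrane protein (edgeR adjusted p = 0.089), and Hmox1, which encodes the heme-degrading enzyme heme oxygenase 1 (0.066), were not called by edgeR. DESeq2 called both (adjusted p = 0.031 and 0.0099), which made 17 of 17, beside 9846 of all 11339 genes. With 4638 added edgeR called both (adjusted p = 8.4e-05 for Cd68 and 0.00026 for Hmox1), and it called Hmox1 without JW14 (adjusted p = 0.0021) and with no filter (0.022). With no filter on low values, 27 of the 33 were called, beside 46.7% of all genes with any count. With edgeR's own filter on low counts, filterByExpr, 27 were called too. The number of all genes called was then 13220, against 13412 with no filter. The calls of 4 genes rested on a single leukemia: Fcgr3 without 73A had an adjusted p of 0.207, C1qa and C1qb without 73M 0.0956 and 0.0578, and C1qc without 20M 0.0531.

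**Figure D2:**
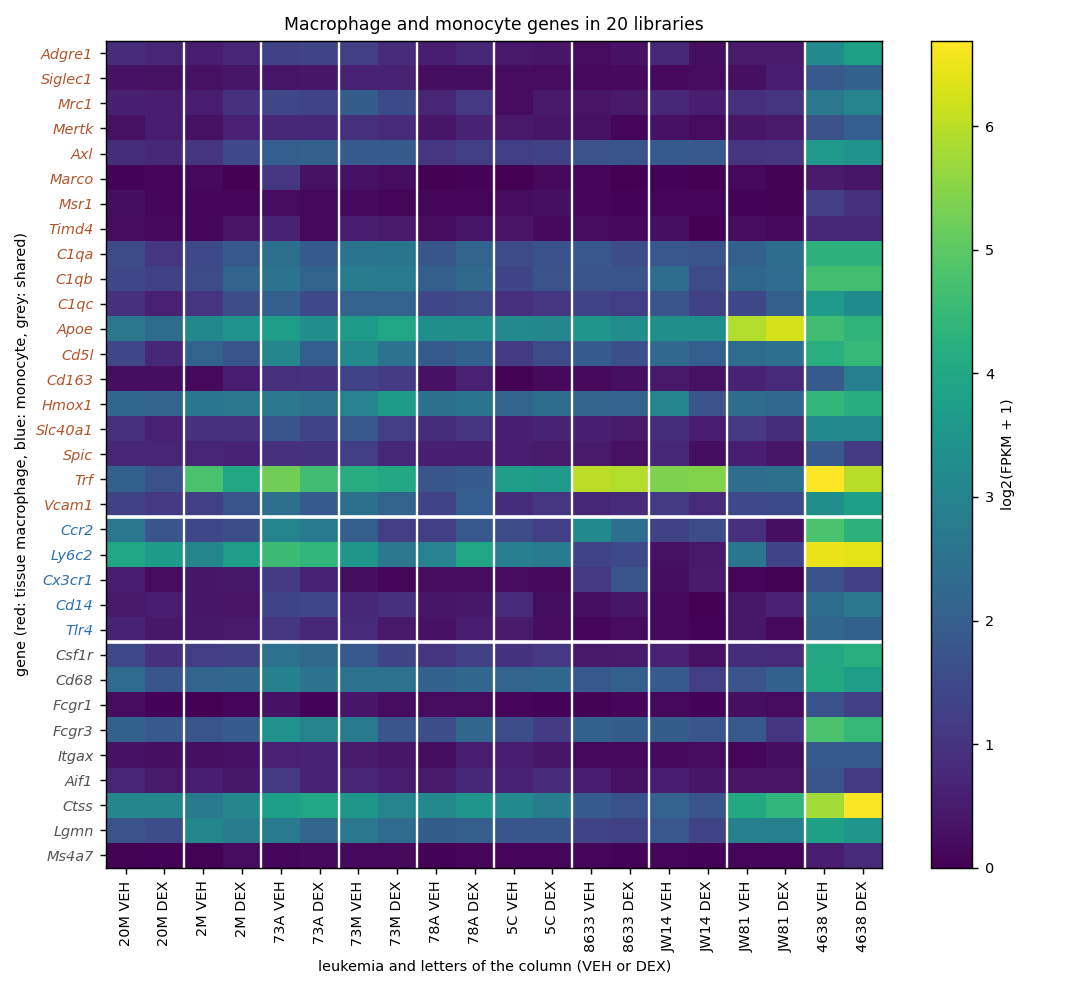
Level of each of the 33 genes (rows, as log2(FPKM + 1) on the color scale) in each of the 20 libraries (columns, paired by leukemia), with tissue macrophage genes on top, monocyte genes in the middle and shared genes below. The 2 columns of 4638 at the right are the brightest for most rows, and Apoe in JW81 and Trf in 8633 and JW14 break the pattern among the other 9 leukemias.

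Of the monocyte genes, Ly6c2, which encodes a Ly6C surface protein, was the most abundant. Its level in the 9 leukemias was lowest in JW14 (0.306 FPKM), had a median of 7.96 FPKM and was highest in 73A, where the 2 libraries gave 22.9 (VEH) and 20.3 (DEX). The library pairs of 73A and JW14 did not overlap with those of any other leukemia. A near-identical neighbour, Ly6c1, can share reads with Ly6c2, so its counts are uncertain. Ccr2, the receptor for monocyte chemoattractant proteins, ran from 0.538 FPKM in JW81 over a median of 1.96 to 6.35 in 73A. It was nearly as high in 8633, at 7.97 (VEH) and 4.43 (DEX), where Ly6c2 was only 1.59 and 1.79. Cx3cr1, the fractalkine receptor of patrolling monocytes and tissue macrophages, was highest in 8633, at 1.17 (VEH) and 2.37 FPKM (DEX), against a median of 0.278. So 8633 had high chemokine receptor transcripts and low Ly6c2. Cd14 and Tlr4, which encode parts of the lipopolysaccharide receptor, were both highest in 73A, at 1.66 and 0.893 FPKM, and lowest in JW14, at 0.0535 and 0.0719 FPKM.

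The complement genes had the same leukemias at both ends of their range. C1qb had 5.97 FPKM in 73M, with 6.03 (VEH) and 5.92 (DEX) in its libraries, a median of 3.02, and 1.56 in 20M. C1qa and C1qc were also highest in 73M (5.03 and 3.28 FPKM) and lowest in 20M (1.49 and 0.732). Cd5l, which encodes a secreted scavenger protein of tissue macrophages, had the same ends, 6.38 FPKM in 73M and 1.17 in 20M. The 3 C1q genes lie beside each other on the minus strand of chromosome 4 (GRCm38), C1qb at chr4:136880129-136886187, C1qc at chr4:136889804-136893065 and C1qa at chr4:136895917-136898803.

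Apoe stood apart from the genes it was grouped with. Its product, apolipoprotein E, carries lipid out of macrophages but is made by other cells too. Its level in JW81 was 59.0 (VEH) and 75.4 FPKM (DEX), whereas the other 16 libraries lay between 4.19 and 14.3 FPKM, with no overlap. Even 4638 was lower than JW81, at 23.9 (VEH) and 19.3 (DEX). Ctss, which encodes the lysosomal protease cathepsin S of antigen-presenting cells, was also highest in JW81, at 15.8 (VEH) and 20.2 FPKM (DEX). Its median was 7.56 and its lowest level 2.52, in 8633. In JW81 C1qb was at 3.76 and 4.03 FPKM and Adgre1 at 0.409 and 0.402, both inside the range of the others.

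Among iron-handling genes, Trf had a pattern of its own. It was at 64.0 (VEH) and 60.0 FPKM (DEX) in 8633, 40.5 and 41.9 in JW14, and 36.8 and 24.0 in 73A. In contrast, it was between 2.14 and 4.58 FPKM in all libraries of 20M, 78A and JW81. The leukemias at the top for Trf, 8633 and JW14, were the lowest for Csf1r (0.386 and 0.377 FPKM). An annotated gene, Gm20425, overlaps Trf on the same strand with an apparent 1.09 FPKM, so reads may be divided between them. Hmox1 ranged from 3.39 FPKM in 8633 to 9.30 in 73M, with 11.8 in the DEX library of 73M and 6.80 in its VEH library. Vcam1 and Slc40a1, the adhesion receptor and the iron exporter, were high in 73M (3.95 and 1.93 FPKM) and 73A (3.72 and 1.99) and lowest in 8633 (0.743 and 0.452). The hemoglobin scavenger receptor Cd163 and the transcription factor Spic, which supports red pulp and marrow macrophages that recycle iron, were highest in 73M too, at 1.38 and 1.03 FPKM.

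Identity and clearance genes were scarce. Adgre1, which encodes the macrophage antigen F4/80, ran from 0.196 FPKM in 8633 over a median of 0.549 to 1.55 in 73A, and the sialic acid receptor gene Siglec1 from 0.115 FPKM in 8633 to 0.561 in 73M. Among the receptors that bind dying cells, Axl was the most abundant, with a median of 1.42 FPKM, a low of 0.777 in 20M and a high of 3.04 in 73A. Mrc1, the mannose receptor gene, and Mertk, the partner of Axl in the TAM kinase family, were highest in 73M at 2.37 and 0.797 FPKM. Marco, which encodes a scavenger receptor for bacteria, was at 1.07 FPKM in the VEH library of 73A and 0.224 in its DEX library. All 16 other libraries of the 9 leukemias lay between 0 and 0.248 FPKM for Marco. Msr1 and Timd4, a scavenger receptor and a receptor for phosphatidylserine, stayed at or under 0.183 and 0.418 FPKM in every leukemia of the 9.

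Of the shared genes, Csf1r was highest in 73A at 4.72 (VEH) and 3.93 FPKM (DEX), with a median over leukemias of 1.20. No library of another leukemia among the 9 exceeded 2.60 FPKM. Csf1r overlaps Hmgxb3 on the opposite strand, which had 4.87 FPKM, and the counting is not stated to use strand, so part of its count may belong to that gene. Cd68 had a narrower spread, from 2.07 FPKM in JW14 to 5.77 in 73A. Lgmn, which encodes the lysosomal protease legumain, was highest in 2M (6.71 FPKM) and JW81 (6.42) rather than 73A, and lowest in 8633 (1.52). Fc gamma receptor genes differed in level, with medians of 2.84 FPKM for Fcgr3 and 0.106 for Fcgr1. Itgax, the integrin CD11c of dendritic cells and macrophages, and Aif1, the actin-binding protein Iba1, were both highest in 73A, at 0.553 and 0.878 FPKM.

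**Figure D3:**
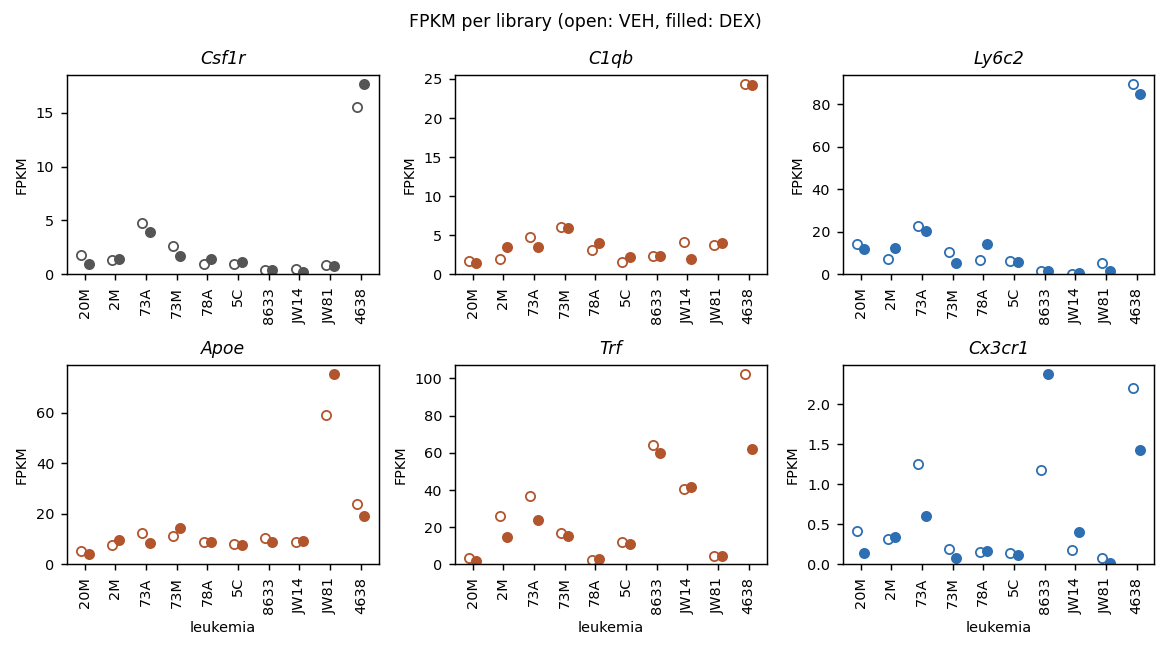
FPKM of Csf1r, C1qb, Ly6c2, Apoe, Trf and Cx3cr1 (vertical axes, each starting at 0) in the VEH (open) and DEX (filled) libraries of the 10 leukemias. Csf1r, C1qb and Ly6c2 are highest in 4638, Apoe in JW81 at 59.0 and 75.4, and Cx3cr1 is as high in 8633 as in 4638.

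Promoter sequence was read for the genes with an entry in the RefSeq table (GRCm38.p6), which gave 22 of the 33. The 250 bases before the RefSeq start were searched for GAGGAA, the core letters of the PU.1 binding site, on both strands (TTCCTC on the other). For Fcgr3, Spic and Cx3cr1 that start lay 5532, 1992 and 1583 bases from the GENCODE start of the gene. Of these, Fcgr3 held the letters. The letters were present in 13 of 22 windows (59.1%), whereas 23.3% of all 32851 windows of that length held them. A match describes the letters and not a bound site. The windows given here show how the letters lie in 1 gene with a match of each kind, that is C1qb for complement (chr4:136886201-136886450), Ly6c2 for monocytes (chr15:75111972-75112221) and Ctss for shared genes (chr3:95526536-95526785), with Apoe (chr7:19699189-19699438) as the gene that departed from the rest. Each is read 5′ to 3′ on the strand of the gene, minus for all but Ctss, and capitals mark the searched letters. The windows of Ccr2 and Cx3cr1, the other monocyte genes read, did not hold the letters.
C1qb: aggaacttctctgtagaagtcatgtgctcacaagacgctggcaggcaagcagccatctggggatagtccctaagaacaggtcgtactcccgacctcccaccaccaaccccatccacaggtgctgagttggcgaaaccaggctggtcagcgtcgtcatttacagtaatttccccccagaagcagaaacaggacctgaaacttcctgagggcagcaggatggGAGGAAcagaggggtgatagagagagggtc
Ly6c2: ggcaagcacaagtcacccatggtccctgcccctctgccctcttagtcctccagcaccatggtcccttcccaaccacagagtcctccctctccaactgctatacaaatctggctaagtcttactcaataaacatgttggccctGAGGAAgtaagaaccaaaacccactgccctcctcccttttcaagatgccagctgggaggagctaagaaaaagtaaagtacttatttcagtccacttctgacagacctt
Ctss: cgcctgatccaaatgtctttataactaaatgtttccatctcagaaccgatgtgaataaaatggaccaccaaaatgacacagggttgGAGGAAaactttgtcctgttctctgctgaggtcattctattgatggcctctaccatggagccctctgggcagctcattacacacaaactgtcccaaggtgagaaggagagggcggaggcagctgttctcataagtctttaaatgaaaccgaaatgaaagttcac
Apoe: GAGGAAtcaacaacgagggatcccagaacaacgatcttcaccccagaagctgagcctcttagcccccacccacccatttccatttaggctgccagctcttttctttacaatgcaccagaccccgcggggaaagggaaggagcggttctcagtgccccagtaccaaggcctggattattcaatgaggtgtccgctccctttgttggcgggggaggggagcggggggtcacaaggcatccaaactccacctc
The match lay 30 bases before the start in C1qb, 108 in Ly6c2, 164 in Ctss and 250 in Apoe, where it is the first stretch of the window.

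Leukemia 4638 had the highest level of the 10 leukemias for 31 of the 33 genes, Apoe and Marco being the exceptions. This contrast was set up after the values had been seen. Its standard errors and p-values measure the spread within library pairs and not that between leukemias, of which 4638 is only 1. In edgeR's quasi-likelihood test of 4638 against the mean of the 9, all 17 genes that averaged at least 1 FPKM in the 9 were higher in 4638, beside 29.7% of all genes tested that were higher. Without a filter all 33 were higher, beside 20.2% of all genes. The median log2 fold change was 2.68 over the 17 and 2.73 over the 33, whereas the median over all genes was -0.01 and -0.13. Both libraries of 4638 lay above all 18 others for 28 of the 33 genes, beside 11.2% of all genes with at least 1 FPKM. Only 17 of the 33 pass that limit, so the 2 shares are over unlike sets. The 5 genes without this separation were Apoe, Trf, Cx3cr1, Marco and Spic.

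Ly6c2 reached 89.5 (VEH) and 84.8 FPKM (DEX) in 4638, far above the 22.9 that was highest in the 18. Its log2 fold change was 4.08 ± 0.24 (SE, adjusted p = 1.8e-08, edgeR). Csf1r was at 15.5 and 17.7 FPKM, with a log2 fold change of 3.87 ± 0.16 (adjusted p = 1.5e-09, edgeR). The receptor through which macrophages are maintained was thus among the genes with the greatest difference, together with Adgre1, at 8.33 and 13.1 FPKM against at most 1.63 in the other libraries. Adgre1 averaged under 1 FPKM in the 9 and had a log2 fold change of 4.06 ± 0.21 in the fit without a filter, where Fcgr1 had 3.93 ± 0.36. Ctss was at 53.3 and 99.4 FPKM (3.36 ± 0.17), and C1qb at 24.4 and 24.2 (2.97 ± 0.19). Ccr2, at 26.8 and 18.7 FPKM, differed by 3.27 ± 0.25. At the other end stood Apoe, at 0.96 ± 0.14, and Lgmn, at 1.78 ± 0.13.

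By role, the median log2 fold change of the genes tested without a filter was 3.36 for the 5 monocyte genes, 2.81 for the 9 shared genes and 2.53 for the 19 tissue macrophage genes, with ranges that overlapped. The range of single genes was 2.57 (Cx3cr1) to 3.93 (Ly6c2) for monocyte genes and 0.80 (Apoe) to 4.06 (Adgre1) for tissue macrophage genes. The iron-recycling genes were raised along with the others: Hmox1 was at 20.5 and 17.1 FPKM, Slc40a1 at 7.99 and 7.91, Cd163 at 2.77 and 6.34 and Vcam1 at 9.15 and 12.7. Spic was at 2.62 and 1.22 FPKM, so that its DEX library fell inside the range of the others, whose highest value was 1.36. Trf was at 102 and 62.1 FPKM, overlapping with 8633.

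**Figure D4:**
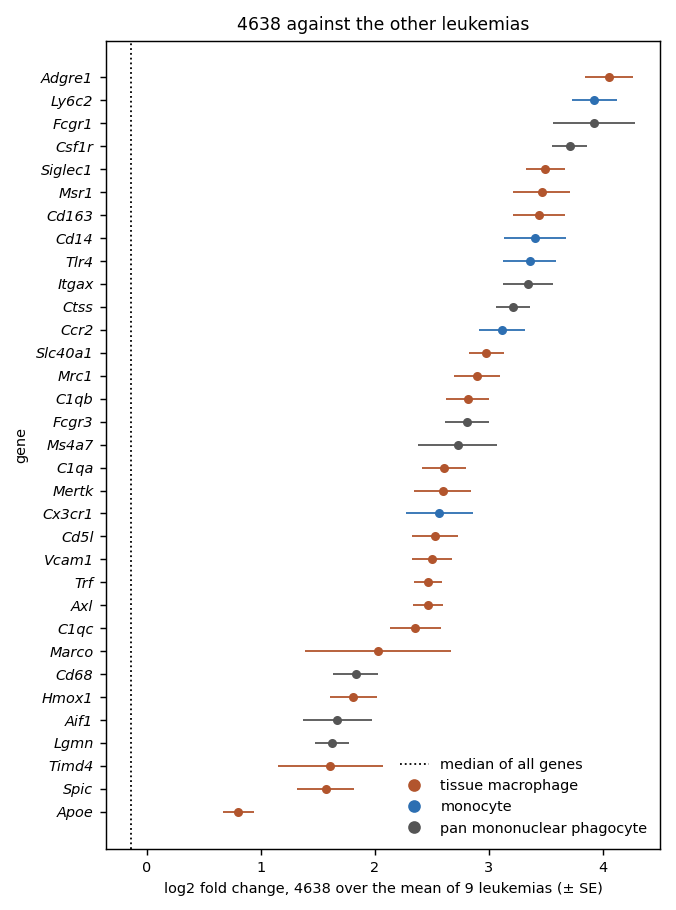
Log2 fold change of 4638 over the mean of the other 9 leukemias for each of the 33 genes (points, with bars of 1 standard error), from edgeR without a filter on low values, colored by role. All points lie right of the median of all genes (dotted line at -0.13), from 0.80 for Apoe to 4.06 for Adgre1.

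Genes of other marrow cells were also higher in 4638, and T lineage genes were lower. All 13 neutrophil genes were higher in edgeR's test of 4638, beside 29.7% of all genes tested. Their summed level was 8950 (VEH) and 5540 FPKM (DEX), against at most 4737 in the 18 libraries. Of the erythroid genes, 8 of the 8 tested were higher, beside the same 29.7%, with sums of 373 and 752 FPKM against 4.65 to 776. The mast cell and basophil list summed to 187 and 196 FPKM against at most 20.3, the dendritic list to 65.7 and 73.9 against at most 19.4, the megakaryocyte list to 19.8 and 22.0 against at most 10.1, and the B lineage list to 27.7 and 45.9 against at most 27.0. All 6 T lineage genes were called lower, beside 27.1% of all genes, with a sum of 207 and 176 FPKM against 302 to 1009. Cd3d, a part of the T-cell receptor complex, was lower by a log2 fold change of -2.83 ± 0.15. The endothelial and stromal list summed to 71.1 and 62.6 FPKM against 25.3 to 90.0, a sum carried by Pdgfrb and Pecam1. Without a filter 6 of its 10 genes were called higher in 4638, beside 20.2% of all genes, and 1 lower. Its list level was 1.36 against at most 1.27 in the 9. The part of a different mixture of cells in the values of 4638 was not tested.

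The columns named DEX and VEH were compared within leukemia, to ask whether the phagocyte genes changed between the 2 libraries of a pair. None did by the test. Of the 17 genes with at least 1 FPKM, 0 were called by edgeR's quasi-likelihood test with the leukemia as a block, beside 13.0% of all 11339 genes. At an unadjusted p under 0.05 edgeR had 0 of the 17, beside 31.5% of all genes, and DESeq2, which called 0 after adjustment, had 2. Without a filter edgeR called 0 of 33, beside 6.28% of all genes, and 5 of 33 had an unadjusted p under 0.05, beside 16.8% of all genes. The lowest adjusted p was 0.16 with the filter, for Slc40a1 with a log2 fold change of -0.31 ± 0.14, and 0.124 without it, for Ccr2 with -0.45 ± 0.17. A p above the threshold does not show that a gene did not change.

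Log2 fold changes of the 17 ran from -0.41 to 0.17, with a median of -0.05 where the median of all genes was 0.00. The standard errors ran from 0.09 for Axl to 0.24 for Ly6c2. Slc40a1 was lower in the DEX library of 6 of 9 leukemias, Lgmn in 8 and Fcgr3 in 7, whereas Axl was higher in 7. For Lgmn the log2 fold change was -0.20 ± 0.10 and for Axl 0.17 ± 0.09, neither of which passed. The difference of list levels, DEX minus VEH, was -0.05 ± 0.19 (SD, n = 9) for tissue macrophage genes with 4 leukemias up and 5 down, -0.11 ± 0.28 for monocyte genes with 4 up and 5 down, and -0.09 ± 0.17 for the shared genes with 2 up and 7 down. Without the 5 leukemias in which 1 library held counts of ribosomal RNA genes, the same differences were -0.01, 0.08 and 0.01, so that the sign of the latter pair turned. The library with such counts was the DEX one in 20M, 73M, JW14 and JW81 and the VEH one in 5C. Ribosomal RNA counts thus mostly went with the letters DEX.

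**Figure D5:**
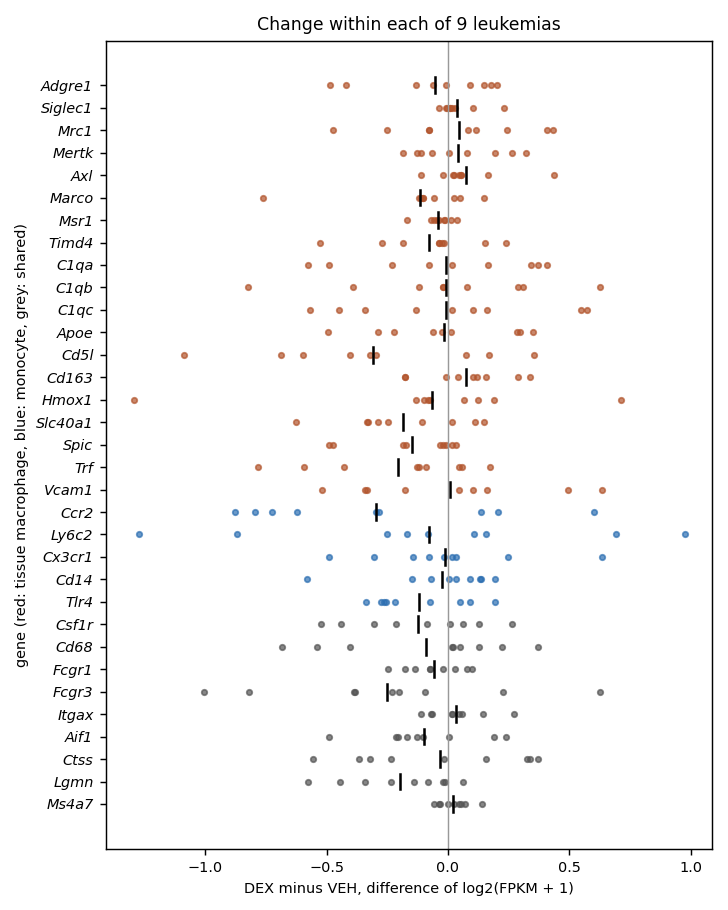
Difference between the DEX and VEH library of each of 9 leukemias (points, on the log2(FPKM + 1) scale) for each of the 33 genes, with a black bar at the mean over leukemias. Points lie on both sides of 0 for every gene, and the means stay between -0.31 for Cd5l and 0.08 for Cd163.

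Single pairs moved more than these means. In 78A all 3 lists were higher in the DEX library, by 0.18 for tissue macrophage, 0.36 for monocyte and 0.22 for shared genes, in 2M they were higher by 0.17, 0.17 and 0.07, and in 20M, 73A and 73M all 3 were lower. In 73M the monocyte list was lower by 0.40 (difference -0.40) in the DEX library, where the neutrophil list differed by -1.18 and the erythroid list by -2.43. The neutrophil and erythroid lists differed by 0.60 and -0.006 in 78A and by -0.52 and -1.18 in 73A. In 4638 the tissue macrophage, monocyte and shared lists differed by 0.01, -0.16 and -0.07. Within 78A, Ly6c2 was at 6.84 (VEH) and 14.4 FPKM (DEX), while in 73M it was at 10.6 and 5.34, so pairs went in opposite directions for the same gene.

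Genes that work with these were taken from lists of 61 further genes. In the DEX against VEH comparison 4 of the 38 that passed the filter were called, or 10.5%, beside 13.0% of all genes. Id3, an inhibitor of E protein transcription factors that T cells also use, had a log2 fold change of -1.40 ± 0.25 (adjusted p = 0.0073, edgeR), and Nfe2l2, the regulator of the antioxidant response, one of -0.50 ± 0.08 (adjusted p = 0.0054, edgeR). Ctsd and Psap, encoding the lysosomal protease cathepsin D and prosaposin, were raised by 0.36 ± 0.09 and 0.21 ± 0.06 (adjusted p = 0.021 and 0.048, edgeR). None of these is restricted to phagocytes, and the other 10 of 12 lysosomal genes were not called. Without a filter 5 of the 61 were called, beside 6.28% of all genes. Psap was lost (adjusted p = 0.22, edgeR), and 2 genes of phagocytes were called lower: Clec7a, the receptor for fungal glucans, with a log2 fold change of -0.80 ± 0.20 (adjusted p = 0.012, edgeR) and lower in 8 of 9 leukemias, and Cybb, the catalytic subunit of the phagocyte oxidase, with -0.53 ± 0.15 (adjusted p = 0.029, edgeR). Among the marker lists, Mmp9 of neutrophils (-0.56 ± 0.13, adjusted p = 0.018, edgeR) and Cpa3 of mast cells (0.99 ± 0.30, adjusted p = 0.046, edgeR) were the 2 called of 38 tested with the filter (5.26%, beside 13.0% of all genes), and 8 of 66 were called without it (beside 6.28% of all genes).

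In 4638, 30 of the 38 tested companion genes were called higher, beside 29.7% of all genes, and 2 lower. The signalling adaptors Tyrobp and Fcer1g, which pair with activating receptors of myeloid cells, had log2 fold changes of 3.89 ± 0.19 and 3.84 ± 0.20. Spi1 was at 15.4 FPKM against a mean of 1.77 in the 9, a log2 fold change of 3.38 ± 0.21. All 5 phagocyte oxidase genes were called higher, from 0.98 ± 0.09 for Cyba to 3.72 ± 0.20 for Ncf1, and 10 of 12 lysosomal genes, but 6 of 8 tested heme and iron genes and 3 of 6 tested transcription factor genes. Nr4a1 (log2 fold change -0.33 ± 0.38) and Id3 (-0.54 ± 0.41) were not called. In contrast, Mfge8, which encodes a bridge between dying cells and phagocytes, was lower by a log2 fold change of -1.83 ± 0.23, and Bach1, a heme-sensing repressor of Hmox1, by -0.50 ± 0.19 (adjusted p = 0.035, edgeR). Both were well expressed in the 9 leukemias, at means of 6.10 and 26.8 FPKM.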

How the data were processed

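Poly(A) RNA from bone marrow was made into TruSeq libraries and sequenced in paired ends by the authors, who aligned the reads to mm10 with Bowtie 2 and quantified them with RSEM. The RSEM version and the gene annotation are not given in the sources used here. The deposited table, though named for FPKM, holds RSEM expected counts, which the authors left without scaling for depth or length. They were rounded to whole numbers here. Of the 20 columns, 17 matched a sample title and 3 DEX columns (2M, 4638 and 73A) matched only the leukemia. FPKM was calculated with merged exon lengths from GENCODE M21 (GRCm38), found for 37693 genes (96.6%). A level is the mean of log2(FPKM + 1), a scale that understates changes of low genes. Floors cover counting error only.

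edgeR 4.0.16 in R 4.3.3 (TMM, quasi-likelihood test, Benjamini-Hochberg adjustment over all genes tested, threshold 0.05) was fitted to 11339 genes that averaged 1 FPKM or more in the 18 libraries, with the leukemia as a block. The pairs come from the labels, since both libraries bear the name of 1 leukemia, and deviations from the mean of the DEX or VEH columns correlated within pairs at 0.583 to 0.911 (median 0.807, 9 pairs). Standard errors came from the F statistic of that test. The spread between leukemias was tested over the leukemia terms together, and 4638 was contrasted with the mean of the other 9 in a model of all 20 libraries. DESeq2 1.42.0, other filters, a term for the 5 libraries with ribosomal RNA genes above 1 count per M counts, no block, a pseudocount of 0.1, TPM, list medians and each leukemia left out were alternatives. The fits were tested on simulated data.

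The genes, lists and companion genes were chosen with earlier results of these data known, and scores over a list carry no p. Values were given for the 3 most abundant genes of each role, for genes whose highest leukemia exceeded 10 times the median (Marco), and for some of the companions and markers that were called or among the 3 most abundant of their list. Csf1r, Cx3cr1, Spi1, Bach1 and the other genes named were chosen after their values were seen. The genotype of the donor mice is not reported here, and a correlation of genes across leukemias was not made.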

Additional observations from a re-analysis of the deposited data

Results flagged for a closer look

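A leukemia was singled out where its gap to the nearest other leukemia exceeded the critical share of the whole range in Dixon's test, which chance alone passes in about 1 of 20 groups. The share of all genes that passed is given beside each count, both over the 11339 genes that averaged at least 1 FPKM and over the 27912 with any count. Levels are on the log2(FPKM + 1) scale.

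Among 10 leukemias, 4638 stood apart for the tissue macrophage list (3.074) and the shared mononuclear phagocyte list (3.106), and for 17 of the 33 genes, all with 4638 at the top. Over all genes 4638 stood apart at the top for 2.77% of those of at least 1 FPKM, where 7 of 17 phagocyte genes passed, and for 8.41% of those with any count. Of the shared genes these were Csf1r at 4.135, Cd68 at 3.891, Itgax at 1.893, Fcgr1 at 1.467, Aif1 at 1.432 and Ms4a7 at 0.6654. The only monocyte gene among the 17 was Tlr4, at 2.142, and the monocyte list did not pass. The tissue macrophage genes were Adgre1 at 3.519 and Siglec1 at 1.978, the clearance receptor genes Axl at 3.525, Mertk at 1.824 and Msr1 at 1.051, the complement genes C1qb at 4.661, C1qa at 4.296 and C1qc at 3.434, and, for iron, Slc40a1 at 3.161 and Cd163 at 2.396.

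Among the 9 other leukemias, 5 of 33 genes had such a leukemia, which is below the 23.6% of all genes with any count. Of the 17 with at least 1 FPKM 3 did, beside 5.56% of all such genes. Apoe in JW81 was at 6.081, Fcgr3 in 73A at 3.194, Hmox1 in 73M at 3.32, Marco in 73A at 0.6717 and Siglec1 in 73M at 0.6426. In the difference DEX minus VEH, 4 of 33 genes had 1 pair apart, beside 24.6% of all genes with any count, and 2 of the 17 with at least 1 FPKM, beside 6.05% of all such genes. The 4 were Hmox1 in JW14 at -1.295, Marco in 73A at -0.7615, Cd14 in 5C at -0.5793 and Axl in 2M at 0.4376. For Hmox1 in JW14 the DEX library was the shallowest of the 20, and the part of depth was not tested.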

How the results depend on the processing

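Between DEX and VEH columns, 0 of the 17 genes that passed the filter were called under any alternative, and 0 of all 33 with no filter or filterByExpr, the alternatives in which the other 16 were tested. The number of all genes called there fell from 1475 to 465 with a term for ribosomal RNA libraries and to 8 with no replicate block, and was 676 (without 20M) to 2041 (without 5C) with a leukemia left out, among them 739 without 2M, 764 without 73A, 847 without 73M and 966 without JW81. Most of the ribosomal RNA libraries were DEX libraries, so that term and the DEX term cannot be fully told apart. The cause was not tested. In this comparison 10 of the 33 genes had the other sign, without a call, in at least 1 alternative. Between leukemias, 27 phagocyte genes were called in place of 15 with no filter and also with filterByExpr, both of which test more genes. Of all genes, 13412 (46.7%) were called with no filter and 13220 with filterByExpr, in place of 9351 (82.5%). In that comparison 4 of 254 single-gene values lost their call and 7 gained one. Against 4638, 9967 genes were called with no filter and 9930 with filterByExpr, in place of 6437, and 33 phagocyte genes under both, in place of 17, while all 271 single-gene values kept direction and call. List levels, which depend on the scale, moved for tissue macrophage genes from 1.326 to 0.2336 with a pseudocount of 0.1, 1.655 in TPM and 0.987 as a median, for monocyte genes from 1.196 to -0.01742 with a pseudocount of 0.1 and 0.7018 as a median, and for shared genes from 1.293 to 0.1189 with a pseudocount of 0.1 and 1.613 in TPM. Depth limits the genes under 1 FPKM most, above all in the DEX library of JW14.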

Other observations

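Genes that act with the phagocyte genes varied to different extents between the 9 leukemias. The 5 genes of the phagocyte oxidase, which makes superoxide in neutrophils as well as macrophages, had a list level of 3.06 ± 0.65 (SD, n = 9). JW14 was lowest at 1.84 and 73A highest at 4.16. The 6 complement receptor and regulator genes ran from 0.34 in JW14 to 1.62 in 73A, and the 10 adaptor and efferocytosis genes from 0.72 to 1.81, with the same leukemias at the ends. Single genes of a list went in opposite directions: of the transcription factor genes, Spi1 was lowest in JW14 (0.222 FPKM) and highest in 73A (4.31), and Id3 was lowest in 73A (0.999 FPKM) and highest in JW14 (23.8). Hp, which encodes the hemoglobin carrier haptoglobin, ran from 0.749 FPKM in JW14 to 50.6 in 73A. Among the growth factor and receptor genes, Csf2ra, a subunit of the GM-CSF receptor, was the most abundant with a mean of 1.25 FPKM, and it was higher in 4638 by a log2 fold change of 3.21 ± 0.14. C3, the central complement protein, was at a mean of 7.73 FPKM in the 9 leukemias and 49.1 in 4638 (log2 fold change 3.27 ± 0.24).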
